A study of Danio rerio and Garra andruzzii with 24 samples.

Results

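The genes of the cytosolic ribosomal proteins were followed in PAC-2 cells, a fibroblast line derived from zebrafish (*Danio rerio*) embryos, during a blue light time course. They were chosen by gene name (*rpl*, *rplp* or *rps* followed by a digit, or *rpsa*, without the *rps6k* kinases) and by a mean raw count of at least 50 over 12 libraries. Of 35886 genes in the genome-mapped table, 83 carried such a name and 79 reached the minimum. These are 46 names of the large subunit and 33 of the small subunit, spread over 24 chromosomes. The members just inside the minimum were *rpl10* (mean 116 raw counts) and *rpl21* (286), and the names just outside were *rps8b* (18.0) and *rpl9* (15.4), followed by a second copy of *rpl26* (0.50) and *rpl32* (0.33). *rpl37* appears as 2 genes, of which that on chromosome 2 is named with its chromosome here.

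PAC-2 cells spent 2 days in the dark and then received blue light of 468 nm, with 3 libraries each after 0, 1, 3 and 6 h. The same 4 times, with 3 libraries each, were sampled in EPA cells, an embryonic cell line of the Somalian cavefish *Phreatichthys andruzzii*, which was grown in medium with more serum. No library was made from cells left in darkness beyond 0 h, so that the effects of light and of the hours passed cannot be told apart here. The longer dark controls of the paper were measured by RT-qPCR for other genes. Whether replicate libraries represent separate cultures is not stated, and the p-values measure only the spread between these samples, which may be technical. Total raw counts were 20037859 to 32521127 per PAC-2 library in the genome-mapped table. The assembled tables hold expected counts, which summed to 25642113 to 41784013 (PAC-2) and 28222058 to 40053884 (EPA) per library. As a check of the labels, the light-responsive clock gene *per2* rose at 3 h against 0 h by 4.18 on the log2 scale (edgeR, adjusted p = 5.6e-17). Of 16 fibroblast marker genes found, 12 were above 1 TPM at 0 h, led by the collagen gene *col1a2* at 461 TPM. Of 6 epidermal markers, 3 were also above that level, with the keratin *krt8* at 1000 TPM, as were 2 of 5 muscle and 1 of 5 pigment markers, whereas 0 of the neural, blood, endothelial and liver markers reached it. The summed fibroblast markers lay between 1451 and 1469 TPM at 3 h, against 1522 to 1751 TPM at 0 h, and the epidermal markers between 890 and 966 TPM at 3 h, against 1042 to 1197 TPM at 0 h. At 6 h the sums were 1685 to 1718 TPM (fibroblast) and 1037 to 1057 TPM (epidermal). The muscle markers summed to 47.97 to 54.73 TPM at 3 h and 36.0 to 40.34 TPM at 6 h, against 64.16 to 67.35 TPM at 0 h, and the pigment markers to 195.7 to 198.9 TPM at 3 h and 213.1 to 215.5 TPM at 6 h, against 174.3 to 197.8 TPM at 0 h. Their part in the results was not tested.

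Ribosomal proteins fold onto ribosomal RNA in the nucleolus, and each subunit needs most of its proteins in equal numbers. In vertebrates their mRNAs begin with a 5′ terminal oligopyrimidine (TOP) tract, through which mTOR and the RNA-binding protein LARP1 adjust their translation and stability, and Myc promotes their transcription. They are among the most abundant mRNAs of a growing fibroblast, and free RPL5 and RPL11 bind MDM2, which links ribosome assembly to p53.

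The ribosomal protein genes made up 11.8% ± 0.61 of all counts at 0 h (SD, n = 3), 11.8% ± 0.92 at 1 h, 13.8% ± 0.49 at 3 h and 11.25% ± 0.10 at 6 h. In TPM, which takes gene length into account, 54 members were above 1000 TPM at 0 h and 7 were under 100 TPM. The highest was *rplp0*, the base of the ribosomal stalk, with 11710 ± 498 TPM at 0 h (SD, n = 3). It was followed by *rps14* (7855 TPM), which lies near the mRNA exit, *rpl7a* (7514 TPM), *rpl35* (6969 TPM) at the rim of the exit tunnel, and *rps23* (6879 TPM) of the decoding centre. *rpl35* and *rps23* did not differ beyond their spread (SD 411 and 349 TPM), whereas *rps14* and *rpl7a* had SDs of 231 and 92.0 TPM. Next came *rpl11* of the 5S ribonucleoprotein (6630 TPM), the stalk gene *rplp2* (6521 TPM), *rps29* (5691 TPM), *rps7* (5206 TPM) and *rps10* (4731 TPM). The lowest were *rpl37* on chromosome 2 (3.48 ± 0.39 TPM), *rpl10* (3.75 ± 1.06 TPM) and *rpl21* (7.89 ± 1.37 TPM). These levels hold for the genome-mapped table. In the assembled PAC-2 table described below, the share of counts was 253 times as large for *rpl10* and 86.6 times for *rpl21*. It was 0.0841 times as large for *rpl7a* and 0.00217 times for *rps10*, while 33 of 71 proteins were within 2-fold.

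Several libraries stood apart before any group was compared. In each library, the log2 normalized count of every member was set against its mean at 0 h, and the median over members was taken. The medians were −0.11, −0.01 and 0.13 at 0 h, −0.11, −0.07 and 0.17 at 1 h, 0.32, 0.41 and 0.28 at 3 h, and −0.14, −0.13 and −0.11 at 6 h. Replicate 3 was the highest of its time at 0 h and at 1 h, while all 3 libraries of 3 h were above every other library. The same libraries differed in how counts related to gene length over all genes. The Spearman correlation of the change with gene length, across genes of 1 library, was 0.14, −0.01 and −0.14 at 0 h, 0.083, 0.063 and −0.15 at 1 h, −0.17, −0.19 and −0.13 at 3 h, and 0.12, 0.12 and 0.10 at 6 h. Libraries with a more negative value thus held relatively more counts of short genes, and the members, with a median length of 1272 bases against 2432 over all tested genes, are short.

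**Figure D1:**
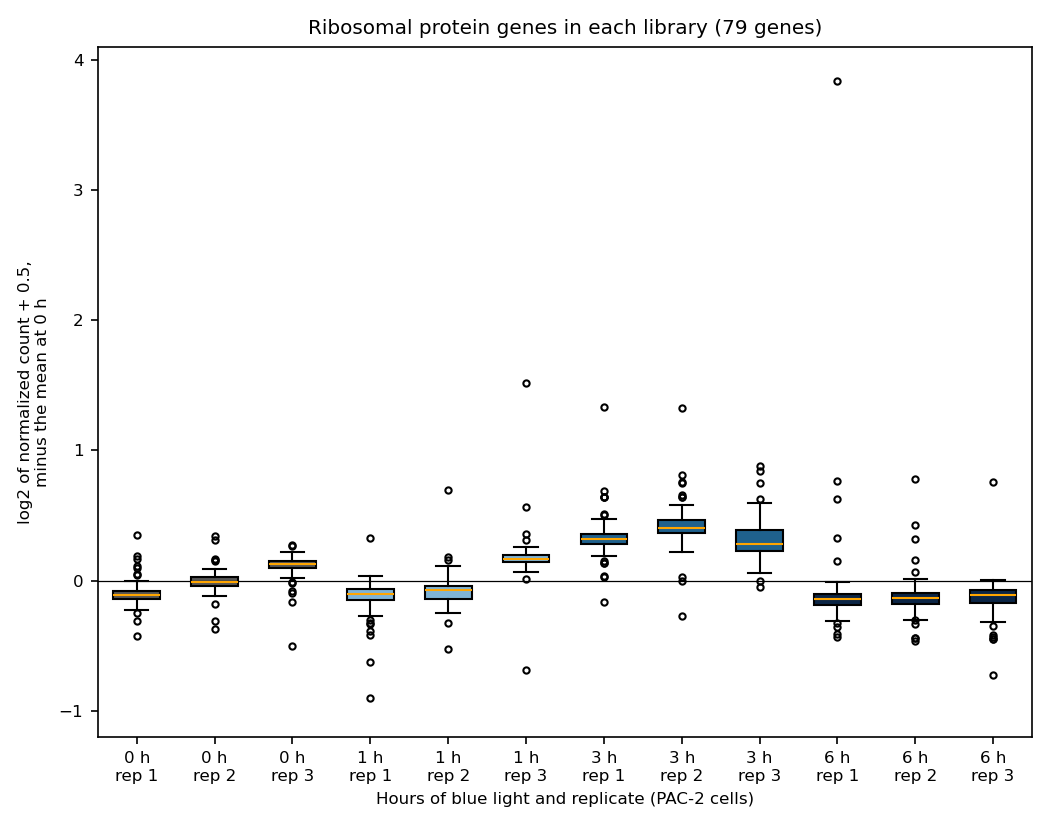
The log2 normalized count of each of the 79 ribosomal protein genes minus its mean at 0 h, for each of the 12 PAC-2 libraries. Orange lines are medians, boxes the quartiles, whiskers reach to 1.5 times the box and circles are single genes beyond them. The 3 h medians (0.32, 0.41 and 0.28) are above those of all other libraries, and the circle near 4 at 6 h replicate 1 is *rps15*.

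After 1 h of light, no ribosomal protein gene was called different from 0 h. Their median log2 fold change at 1 h against 0 h was −0.009, and that of all tested genes −0.005. In edgeR's quasi-likelihood test with Benjamini-Hochberg adjustment over 18017 tested genes, at adjusted p under 0.05, 0 members were called higher (0.155% of all tested genes) and 0 lower (0.0167% of all tested genes). At an unadjusted p under 0.05 there were also 0 in each direction, as there were by DESeq2 and limma at adjusted p under 0.05. All 79 members passed the filter on low counts.

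At 3 h, nearly all ribosomal protein mRNAs had risen together by a small amount. Of 79 members, 67 were higher at 3 h than at 0 h, where 11.3% of all tested genes were, and 0 were lower, where 10.1% of all genes were. At an unadjusted p under 0.05, 71 were higher and 0 lower, and DESeq2 and limma each called 68 higher and 0 lower. The median log2 fold change was 0.34 over the members, a 1.26-fold rise, and −0.004 over all tested genes. The called rises reached from 0.20 to 0.66, with 56 of 67 between 0.2 and 0.4, and 78 of 79 members had a positive sign, as 49.4% of all genes had. The limits of the study (a 2-fold change, or 1 on the log2 scale, and adjusted p under 0.001) were met by 0 members at 3 h (0.705% of all genes higher and 0.0278% lower) and at 6 h (1.47% higher and 0.0722% lower). In 72 members every 3 h library was above every 0 h library, which held for 18.2% of all genes. Large and small subunit were alike, with medians of 0.34 and 0.33. Against 1 h, 68 members were higher at 3 h, where 9.85% of all genes were, and 0 were lower, where 8.82% were. Over all 4 times, 73 members differed in the joint test, as 45.2% of all genes did.

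*rpl27*, a large subunit protein on chromosome 3 (GRCz11, 29893966 to 29899230), followed the other members most closely. Its normalized counts were 26476, 28427 and 30965 at 0 h, 26239, 27086 and 32460 at 1 h, 35946, 39225 and 35426 at 3 h, and 25717, 26026 and 26190 at 6 h. The 3 h libraries were all above the 0 h and 1 h libraries, and the 6 h libraries were all below those of 0 h. The log2 fold change at 3 h was 0.37 ± 0.08 (SE, adjusted p = 0.00306). *rpsa*, the laminin receptor homologue at the mRNA exit of the small subunit, had 220620, 223640 and 256880 normalized counts at 0 h, 218130, 224640 and 264740 at 1 h, 287380, 295780 and 283980 at 3 h, and 210380, 213660 and 221910 at 6 h. It rose by 0.31 ± 0.08 at 3 h (SE, adjusted p = 0.00873), and the 6 h libraries overlapped those of 0 h.

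By the place of the protein in the ribosome, the group medians at 3 h lay between 0.29 and 0.38. Among 5 genes of the stalk and its base, 4 were higher, with a median of 0.37 on the log2 scale. *rplp0* rose by 0.27, and *rplp2* and *rplp2l* by 0.40 and 0.37. The 5S ribonucleoprotein genes *rpl5a*, *rpl5b* and *rpl11* rose by 0.29, 0.26 and 0.31. Of 8 genes of the peptide exit tunnel and its rim, 7 were higher (median 0.30), from *rpl26* at 0.20 to *rpl31* at 0.40. All 4 genes grouped under the mRNA entry and decoding centre were higher (median 0.31). This group leaves out *rps15*, which also contacts the decoding region and was not called (0.44, edgeR, adjusted p = 0.808). All 6 genes grouped at the mRNA exit side were higher (median 0.38), and *rps28* had the largest rise there, 0.48. These groups were put together after the values were seen and are given as a description.

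Among the called rises, the largest at 3 h, chosen after the values were seen, were those of *rpl37* on chromosome 2 (0.66), *rpl38* (0.66), *rps29* (0.57), *rpl29* (0.55), *rpl37* (0.51), *rpl30* (0.50), *rpl21* (0.50), *rps28* (0.48), *rpl36* (0.47) and *rps12* (0.42). In the assembled PAC-2 table described below, *rpl21*, *rpl30* and *rps12* held 86.6, 15.8 and 28.8 times the share of counts. There they rose by 0.308, 0.299 and 0.323, against a median of 0.307 over the proteins. The other names of this list rose there by 0.435 to 0.545, but RL37 (0.487) is a single name there and does not separate the copies of *rpl37*. *rps29*, a zinc-binding protein of the small subunit head, had 22559, 28448 and 30016 normalized counts at 0 h, 26159, 23360 and 30312 at 1 h, 36003, 45198 and 38697 at 3 h, and 21599, 21714 and 21458 at 6 h. The 3 h libraries lay above all others. *rpl38*, known in mice for its part in translating Hox mRNAs, had 5954.9, 8938.7 and 9627.3 at 0 h and 12906, 14050 and 11702 at 3 h, so that the groups did not overlap although the 0 h libraries spread 1.62-fold (log2 fold change 0.66 ± 0.17 SE, adjusted p = 0.0239). Its call was lost without 3 h replicate 1 or 2 (adjusted p = 0.0633 and 0.0848) and with the 2 times fitted alone, that of *rpl21* without 3 h replicate 1 (adjusted p = 0.0522), and that of *rps12* (adjusted p = 0.0454) under 12 of the alternatives.

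**Figure D2:**
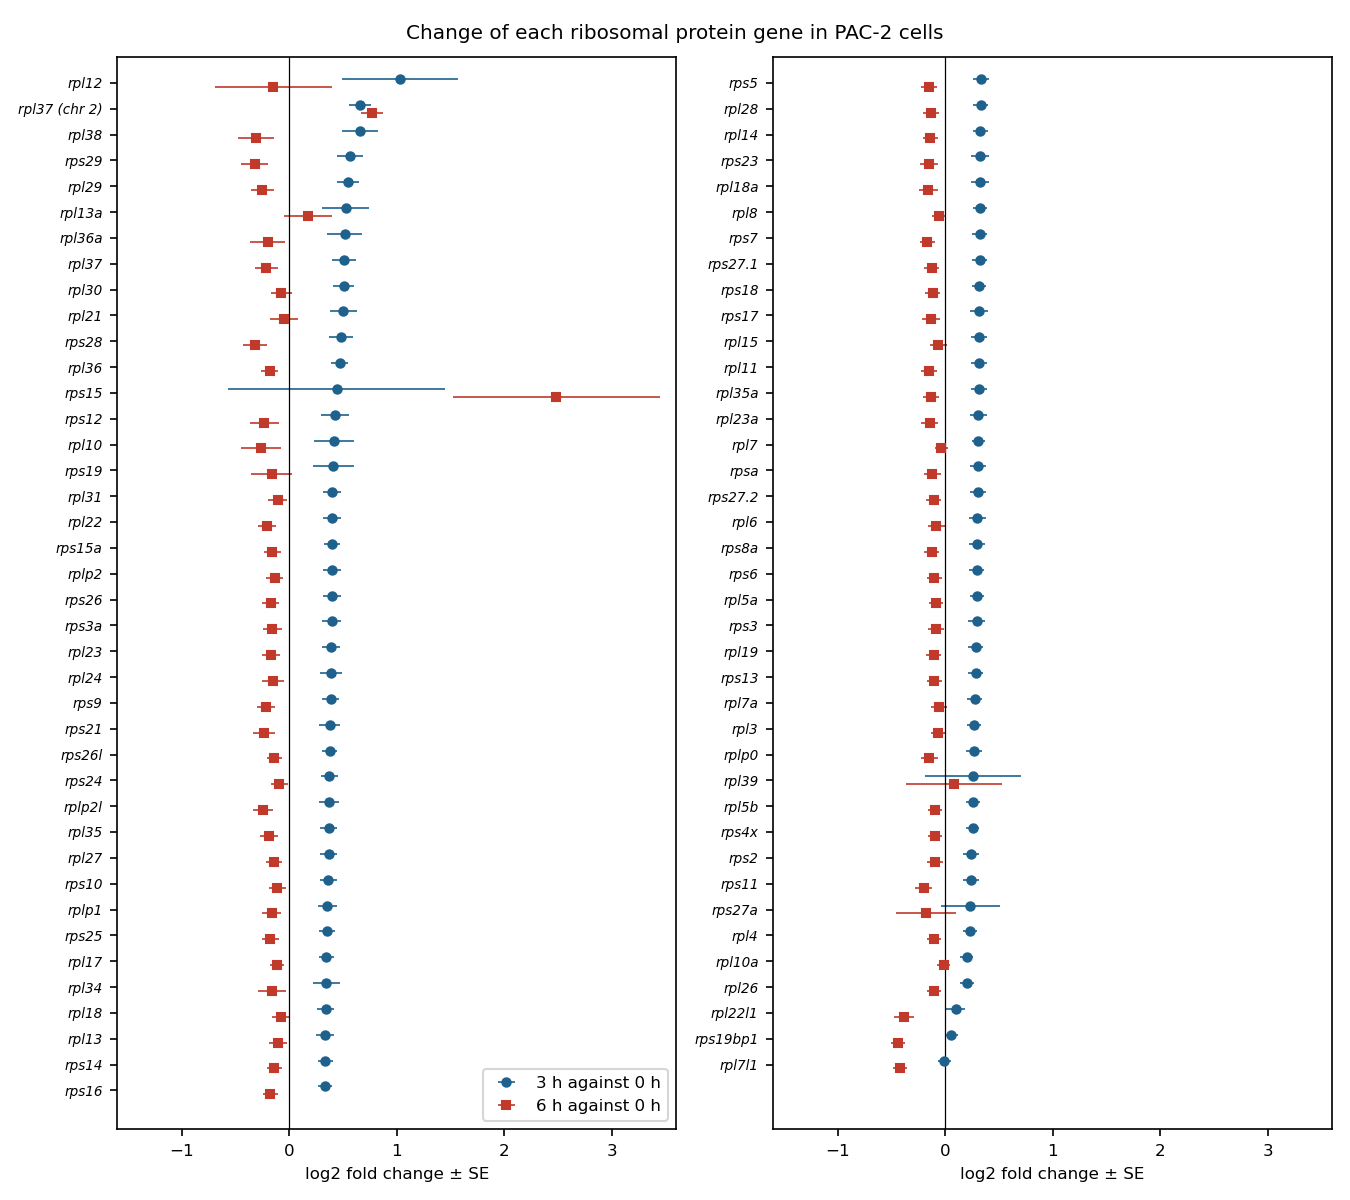
The log2 fold change ± SE of each member in PAC-2 cells, at 3 h (blue circles) and 6 h (red squares) against 0 h, sorted by the change at 3 h. Nearly all circles lie between 0.2 and 0.7 and nearly all squares slightly below 0. At the end of the list, *rpl22l1*, *rps19bp1* and *rpl7l1*, which are not usual subunits of the ribosome, have circles near 0 and squares near −0.4.

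With other scalings, filters and tools at adjusted p under 0.05, 62 to 69 members were higher at 3 h, and with 1 library left out 45 (without 3 h replicate 2) to 69. Gene length was set beside this rise. Over all genes, the Spearman correlation of the fold change at 3 h with gene length was −0.18, across 18017 genes, which are not independent, and −0.077 across the 79 members. Other genes no longer than the median member had a median of 0.086 at 3 h (3270 genes), and other genes with a mean of at least 10000 normalized counts had 0.089 (309 genes). With the trend removed from the fold changes, the members' median was 0.29 in place of 0.335, and with the trend removed from each library, limma called 64 members higher. Replicate 3 of 0 h and of 1 h had length correlations of −0.14 and −0.15 and member medians of 0.13 and 0.17. The 3 h libraries had correlations of −0.17, −0.19 and −0.13 and medians of 0.32, 0.41 and 0.28. What part of the 3 h rise goes with these differences between libraries was not tested. Scaling by library totals without TMM shifted every log2 fold change at 3 h by −0.10, so that the medians were 0.233 over the members and −0.107 over all genes.

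The 12 members that were not called at 3 h fell into 2 kinds. *rps15*, *rpl12*, *rpl39*, *rps27a*, *rpl13a*, *rpl10*, *rps19*, *rpl36a* and *rpl34* had fold changes between 0.24 and 1.03 with wide spread among libraries, and the median SE of the 12 was 0.187 against 0.077 for the called members. *rpl12*, a stalk base protein, had 3473.5, 3369.2 and 3712.3 normalized counts at 0 h, 1880, 5682.8 and 10047 at 1 h, 8876.7, 8818.1 and 3881.6 at 3 h, and 2798.1, 3533.3 and 3185.6 at 6 h. The 1 h libraries differed 5.34-fold and the 3 h libraries 2.29-fold (log2 fold change 1.03 ± 0.54 SE, adjusted p = 0.223). *rps15*, which contacts the decoding region, had 237.41, 237.5 and 217.91 at 0 h, 234.13, 208.65 and 342.33 at 1 h, 285.1, 304.11 and 355.74 at 3 h, and 3305.8, 310.35 and 230.97 at 6 h. A single library, 6 h replicate 1, was 14.3 times the lowest of its time, and the change at 6 h was not called (2.49 on the log2 scale, adjusted p = 0.0901). *rpl39*, a small protein lining the exit tunnel, varied 1.79- to 2.56-fold within every time.

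The other kind was *rpl7l1*, *rps19bp1* and *rpl22l1*, whose libraries varied at most 1.26-fold within a time and whose changes at 3 h were −0.01, 0.06 and 0.10. None of them is a usual subunit of the ribosome. RPL7L1 is the homologue of a yeast ribosome assembly factor, RPS19BP1 is a nucleolar protein that binds RPS19, and RPL22L1 is a paralogue that can stand in for RPL22. Without them, 67 of 76 members were higher at 3 h.

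At 6 h, the rise was gone. Against 3 h, 73 of 79 members were lower at 6 h, where 20.1% of all genes were, and 0 were higher (20.4% of all genes, and 0 members at an unadjusted p under 0.05). The median change from 3 h was −0.47 on the log2 scale, and 66 of the 67 members called at 3 h were among those lower. Against 0 h, 3 members were lower at 6 h (14.9% of all genes) and 1 was higher (14.1% of all genes), and the median was −0.14, or 0.91-fold, against 0.002 over all genes. Although 75 of 79 had a negative sign (49.7% of all genes), and 23 had all 6 h libraries below all 0 h libraries (21.7% of all genes) and 1 had them above (21.6%), most of these differences did not pass the test. The count of lower members depended on the libraries: it was 25 when 0 h replicate 1 was left out, 14 for 1 h replicate 3 and 5 for 1 h replicate 2, and it was 11 by DESeq2. The count of higher members was 2 without 6 h replicate 3. Over other genes of the same length or less, the median at 6 h was −0.058, and with the length trend removed that of the members was −0.109.

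The 3 members that fell at 6 h were among the 12 not called at 3 h. *rps19bp1* (chromosome 6, 264927 to 268818, plus strand) had 1601.5, 1674.8 and 1840.4 normalized counts at 0 h, 1478.2, 1653.2 and 1715.1 at 1 h, 1889.2, 1731.4 and 1699.3 at 3 h, and 1262.8, 1250.8 and 1249.6 at 6 h. It fell by 0.44 on the log2 scale (SE 0.07, adjusted p = 8.2e-05). *rpl7l1* (chromosome 20, 36675083 to 36679233, minus strand) had 2809.8, 2648.4 and 2638.6 at 6 h, against 3311.4, 3691.6 and 3827.8 at 0 h, a fall by 0.42 (SE 0.06, adjusted p = 0.000113). *rpl22l1* (chromosome 24, 26475182 to 26479841, minus strand) had 1058.7, 1017 and 1166.5 at 6 h, against 1237, 1556.6 and 1444 at 0 h, a fall by 0.38 (SE 0.09, adjusted p = 0.00561). In all 3 genes, every 6 h library was below every 0 h, 1 h and 3 h library.

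*rpl37* on chromosome 2 (49860722 to 49871576, plus strand) was the only member that rose at 6 h. It had 250.59, 324.86 and 300.61 normalized counts at 0 h, 274.9, 253.24 and 322.3 at 1 h, 452.81, 487.24 and 438.42 at 3 h, and 492.56, 500.12 and 491.74 at 6 h. The rise was 0.77 ± 0.10 (SE, adjusted p = 3.18e-05). The copy on chromosome 21, with 54638 ± 1617 normalized counts at 6 h against 63288 ± 8136 at 0 h (SD, n = 3), changed by −0.21 (adjusted p = 0.177). The chromosome 2 gene model is 6136 bases long, against 1272 for the copy on chromosome 21, and how reads shared by the copies or by overlapping genes were counted is not given in the sources used here. In the assembled PAC-2 table described below, the name RL37 changed by −0.157 at 6 h and does not separate the copies. The rise of the chromosome 2 gene could therefore not be followed there.

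**Figure D3:**
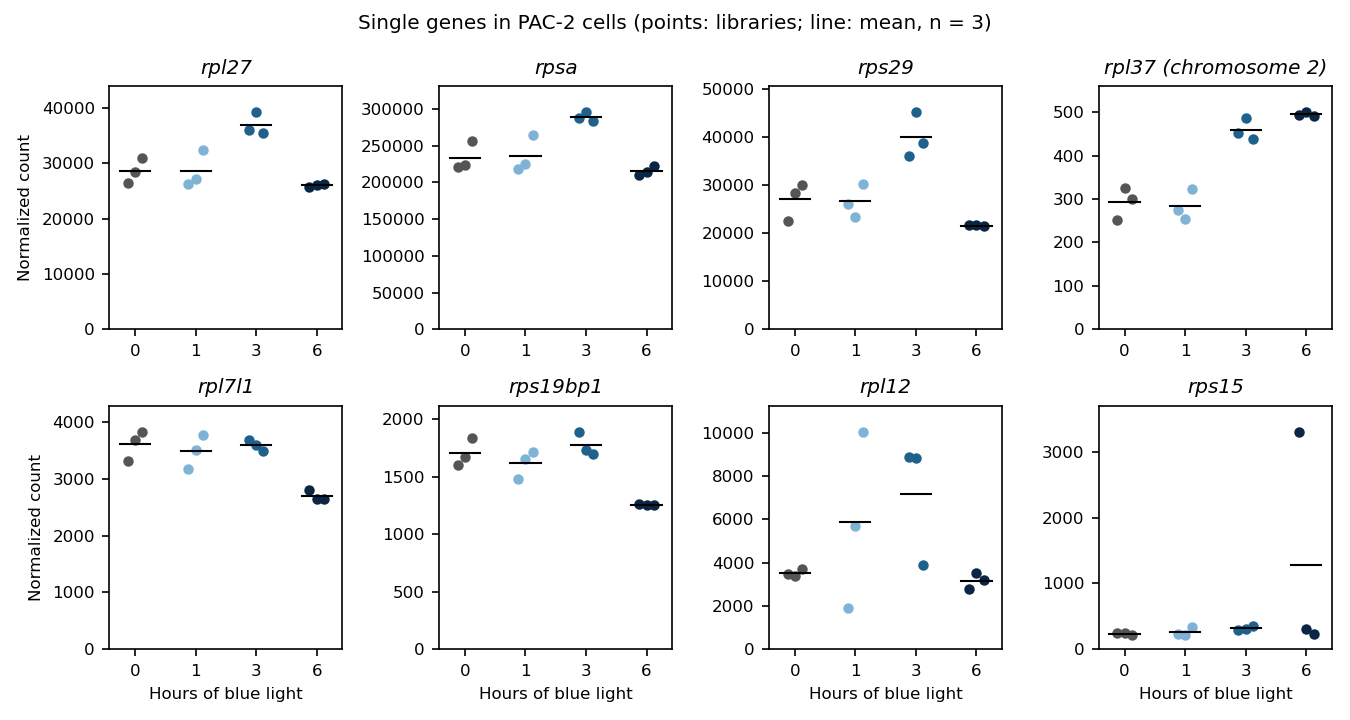
Normalized counts of 8 members, picked with their values known, in each PAC-2 library after 0, 1, 3 and 6 h of blue light. Points are libraries and a line is the mean of 3. *rpl27*, *rpsa* and *rps29* peak at 3 h, and *rpl37* on chromosome 2 stays high at 6 h. *rpl7l1* and *rps19bp1*, which are not usual subunits of the ribosome, are lowest at 6 h. Single libraries of *rpl12* and *rps15* stand far from the others.

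The proportions of close copies that rose together moved by less than 2 percentage points. *rpl5a* held 57.6% ± 0.70 of the summed TPM of *rpl5a* and *rpl5b* at 0 h (SD, n = 3), 57.8% ± 0.27 at 1 h, 58.2% ± 0.36 at 3 h and 57.8% ± 0.19 at 6 h. *rps27.1* held 74.5% of the pair with *rps27.2* at 0 h and 74.2% to 74.7% at the later times, *rplp2* held 68.8% of the pair with *rplp2l* at 0 h and 68.9% to 70.4% later, and *rps26* held 60.1% of the pair with *rps26l* at 0 h and 59.0% to 60.4% later. Among pairs with a member that did not rise, that of *rpl22* moved by more than 2 percentage points and that of *rpl7* by less. *rpl22* held 79.1% ± 1.07 of its sum with *rpl22l1* at 0 h, 79.6% ± 0.45 at 1 h, 82.3% ± 0.28 at 3 h and 81.0% ± 1.05 at 6 h, and *rpl7* held 96.45% ± 0.14, 96.67% ± 0.15, 97.12% ± 0.11 and 97.25% ± 0.15 of its sum with *rpl7l1* at these times. No test was run on the shares. As reads of close copies may be split in counting, shares of near-identical copies are uncertain.

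Across the 12 libraries, 64 of 79 members had a Pearson correlation over 0.9 with the mean of the other members, and the median was 0.97. Libraries of a time share their treatment, and with the time means taken out the median was 0.89 (a description, with no test). The lowest values were those of *rps15* (−0.13), *rpl39* (−0.09) and *rpl37* on chromosome 2 (0.29).

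Related gene lists are given beside the shares of all tested genes, which were 11.3% higher and 10.1% lower at 3 h, and 14.1% higher and 14.9% lower at 6 h. No gene list was corrected for gene length. Over all genes, the Spearman correlation of the fold change with length was −0.18 at 3 h and 0.13 at 6 h. Its part in the changes of single listed genes was not tested. Among genes of ribosomal proteins that the name rule misses, *faua*, which encodes a small subunit protein fused to a ubiquitin-like part, rose at 3 h by 0.33 (adjusted p = 0.00311), and *rack1*, a small subunit scaffold, by 0.28 (adjusted p = 0.0123). Of 19 elongation factors and other TOP mRNAs, 8 rose (42.1%) and 1 fell (5.26%) at 3 h (median 0.15), with rises of *eef1db* (0.31) and *tpt1* (0.27), and 7 fell at 6 h (36.8%). Of 43 translation initiation factors, 10 rose (23.3%) and 2 fell (4.65%) at 3 h (median 0.10), and 24 fell (55.8%) and 1 rose (2.33%) at 6 h (median −0.18). Of 69 mitochondrial ribosomal proteins, 11 rose at 3 h (15.9%, near the share of all genes, median 0.12). The largest change was that of *mrpl51* (1.01 ± 0.32 SE), which is low at 13.0 normalized counts at 0 h, and *mrpl41* rose by 0.44 ± 0.06 (SE). At 6 h, 41 mitochondrial ribosomal protein genes fell (59.4%), for example *mrpl22* by 0.62, and 1 rose (1.45%), with a median of −0.27.

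Most genes that build ribosomes were not called at 3 h and were lower at 6 h. Of 80 nucleolar assembly genes, 2 rose (2.5%, against 11.3% of all genes) and 4 fell (5.0%, against 10.1%) at 3 h, with a median of −0.01. At 6 h, 56 fell (70.0%, against 14.9% of all genes) and 0 rose (14.1% of all genes, and 0 of the list at an unadjusted p under 0.05), with a median of −0.32. The early assembly factors *utp20* and *heatr1* fell by 0.45 and 0.40 at 3 h. At 6 h, nucleolin (*ncl*) had 17992 ± 386 normalized counts, against 25265 ± 1910 at 0 h (SD, n = 3), a fall by 0.49 (adjusted p = 3.82e-06), and *nop56* and *fbl* of the box C/D particles fell by 0.50 and 0.45. *tsr2*, the chaperone of RPS26, fell by 0.58 (adjusted p = 1.58e-06), and *dkc1*, the pseudouridine synthase, fell by 0.58. Of 12 genes of RNA polymerase I and its factors, 4 fell at 6 h (33.3%, against 14.9% of all genes), including *ubtf*, the promoter-binding factor, by 0.32.

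**Figure D4:**
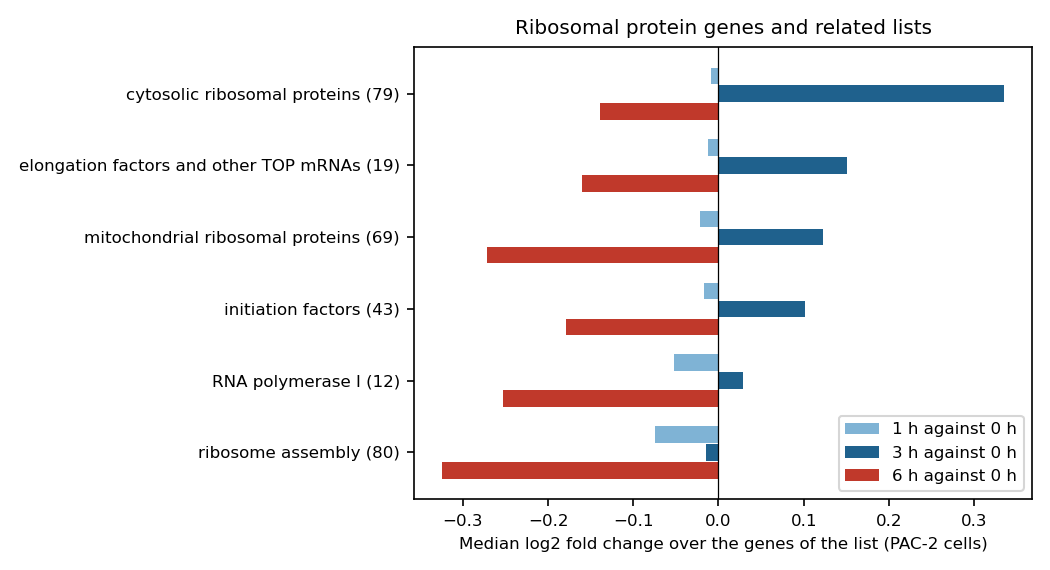
The median log2 fold change over ribosomal protein genes and related gene lists in PAC-2 cells at 1, 3 and 6 h against 0 h, with the number of tested genes in brackets. The ribosomal proteins have medians of 0.34 at 3 h and −0.14 at 6 h, and the assembly genes −0.01 and −0.32; the mTOR and Myc list (−0.01 and 0.069) and the surveillance list (−0.072 and −0.051) are not drawn.

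Of 32 genes around mTOR and Myc, 5 rose (15.6%) and 3 fell (9.38%) at 3 h, near the shares of all genes (11.3% and 10.1%). At 6 h, 10 rose (31.2%, against 14.1% of all genes) and 5 fell (15.6%, against 14.9%). *sesn2*, a leucine sensor that restrains mTORC1, had 516 ± 49.6 normalized counts at 3 h and 614 ± 33.7 at 6 h, against 335 ± 11.0 at 0 h (SD, n = 3), rises of 0.62 and 0.88. *mxd4*, a Max partner that opposes Myc, rose by 0.59 and 0.68, and *mycn* by 0.57 and 0.34. *mtor* fell by 0.38 at 3 h and was higher by 0.27 at 6 h, and *mycb* fell by 0.46 at 6 h. Of 18 genes that survey stalled or unassembled ribosomes, 5 rose (27.8%, against 11.3% of all genes) and 3 fell (16.7%, against 10.1%) at 3 h, and 6 rose (33.3%, against 14.1%) and 5 fell (27.8%, against 14.9%) at 6 h. Among them *mdm2*, the target of free RPL5 and RPL11, rose by 0.58 at 3 h (adjusted p = 0.00231).

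The reads of both cell lines were also assembled without a genome, and Trinity genes were named by their best match in UniProt. Ribosomal protein names were held by 122 Trinity genes in PAC-2 cells and by 133 in EPA cells, which gave 77 protein names in each after counts of a name were summed. In the assembled PAC-2 table, 68 of 77 proteins were higher at 3 h than at 0 h, where 19.2% of all names were, with a median of 0.31 on the log2 scale, and 0 were lower (18.6% of all names, and 0 proteins at an unadjusted p under 0.05). At 1 h, 0 were called higher (0.169% of all names) or lower (0.013%). Against 3 h, 71 were lower at 6 h (30.1% of all names). Lower at 6 h against 0 h were RL7L (−0.37) and RL38 (−0.36), 2 of 77 where 23.3% of all names were, and 0 were higher (24.3% of all names, and 0 proteins at an unadjusted p under 0.05). That count of 2 was 9 without PAC-2 0 h replicate 1, 4 without 6 h replicate 1, and 1 without 0 h replicate 3, 6 h replicate 2 or 3, or any 1 of the 3 h libraries. These are the same PAC-2 libraries and no independent replication.

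The assembly also bore on members that were low in the genome-mapped table. Of 71 proteins in both tables, 33 took a share of counts within 2-fold of each other, but 9 took over 10 times the share in the assembled table, led by RL10 (253 times), RS15 (104 times), RL21 (86.6 times) and RL26 (84.9 times). Another 6 took under 0.1 times the share in the assembled table, RL7A, RL13A, RL39, RS18, RS10 and RL24. The level of these members thus depended on the table. In the assembled table all 9 that were high there were higher at 3 h than at 0 h, by 0.27 to 0.33 on the log2 scale, and RS15 had 66480 ± 1920 normalized counts at 6 h against 69660 ± 4370 at 0 h (SD, n = 3). RL12 rose there by 0.33. Of the 6 that were low there, RL7A rose by 0.31 at 3 h and 5 were not called, with means of 49.5 to 344.6 normalized counts at 0 h. Their log2 fold changes at 3 h were 0.56 ± 0.37 (RS10), 0.55 ± 0.88 (RL39), −0.12 ± 0.33 (RL13A), −0.73 ± 1.26 (RL24) and −0.80 ± 0.57 (RS18, SE).

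EPA cells did not show the rise. At 3 h against 0 h, 0 of 77 proteins were called higher (3.08% of all names) and 0 lower (1.36% of all names), and there were also 0 in each direction at an unadjusted p under 0.05. The median was −0.03, and the 77 values lay between −0.165 and 0.064, with a median SE of 0.05. RL27, for example, had 75690 ± 1530 normalized counts at 3 h against 76700 ± 2290 at 0 h in EPA cells, and 44880 ± 2700 at 3 h against 35260 ± 2170 at 0 h in PAC-2 cells (SD, n = 3 each). At 1 h, 0 proteins were called in either direction in EPA cells (0.853% of all names higher and 0.332% lower), and before adjustment 14 were lower and 0 higher at p under 0.05. At 6 h, 5 were higher (12.4% of all names), RS27L, RL4B, RL7L, RL5 and RS23, by 0.12 to 0.19, and 0 were lower (8.64% of all names, with 1 at an unadjusted p under 0.05). The count of 5 was 1 without EPA 0 h replicate 1, 0 h replicate 2 or 6 h replicate 3, and 2 without 6 h replicate 1, and the count of 0 lower was 8 without 6 h replicate 1 and 1 without 0 h replicate 1.

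**Figure D5:**
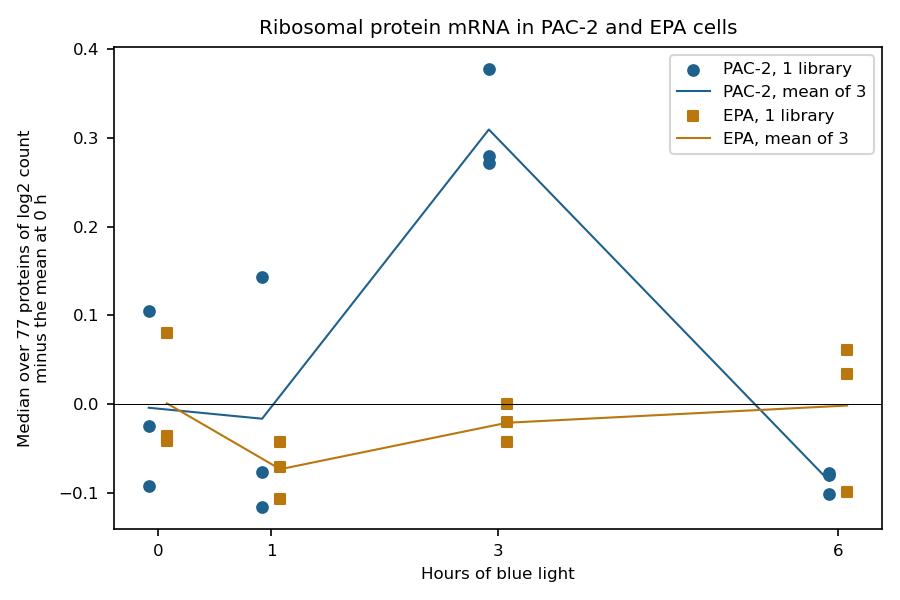
The median over ribosomal proteins of the log2 normalized count minus the mean at 0 h, for each library of PAC-2 (blue circles) and EPA cells (brown squares) in the assembled tables, against hours of blue light. Lines join the means of 3 libraries, and the 3 h libraries of PAC-2 cells (0.28, 0.38 and 0.27) lie above every EPA library.

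The responses of the lines were compared by an interaction test in edgeR over 6235 protein names in both tables, of which 71 are ribosomal. At 3 h, the response was higher in PAC-2 than in EPA cells for 51 of 71 proteins (11.9% of all names) and lower for 0 (15.3% of all names, and 0 of 71 at an unadjusted p under 0.05). The median difference, PAC-2 minus EPA, was 0.33 on the log2 scale, with a positive sign in 68 of 71, against −0.02 over all names. Leaving out PAC-2 0 h replicate 1 reduced the 51 to 26, PAC-2 0 h replicate 2 to 32, PAC-2 3 h replicate 2 to 30 and EPA 0 h replicate 3 to 25. RL29 differed by 0.57 ± 0.14 (SE, adjusted p = 0.00446) and RL27 by 0.36 ± 0.10 (SE, adjusted p = 0.012), whereas RL7L differed by −0.03 ± 0.07. At 6 h, the response was lower in PAC-2 than in EPA cells for 7 proteins (28.6% of all names) and higher for 0 (18.7% of all names, and 0 of 71 at an unadjusted p under 0.05). RL7L had the most negative of these differences, −0.58 ± 0.07 (SE, adjusted p = 2.19e-06), and the others were RL23, RL23A, RS7, RL19, RS23 and RS27L. The count of 7 was 13 without PAC-2 0 h replicate 1, 4 without PAC-2 0 h replicate 3, 3 without EPA 0 h replicate 1 or 6 h replicate 3, 11 without EPA 0 h replicate 3 and 14 without EPA 6 h replicate 2. At 1 h, 0 of 71 proteins differed (0.385% of all names higher and 0.593% lower in PAC-2), and before adjustment 1 was higher and 0 were lower at p under 0.05. The lines also differ in species and in the serum of their medium, and these cannot be told apart.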

How the data were processed

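Poly-A RNA of 24 libraries was sequenced in paired ends. For PAC-2 cells, the sequencing provider mapped reads to GRCz11, and the authors deposited raw counts per gene; the sources used here do not name the aligner, the counter or the strand setting, so that overlapping and antisense genes cannot be told apart. For both lines, the authors deposited expected counts per Trinity gene from salmon, after a TPM cutoff, which were rounded here. The authors also deposited FPKM values per gene, normalized to gene length and library size. TPM was obtained by rescaling these FPKM values to an equal sum in every library, and served only to describe levels and shares, with no test.

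Counts were fitted over 12 libraries per table, and over all 24 for the difference between lines, with edgeR 4.0.16 in R 4.3.3 (TMM, filterByExpr, robust quasi-likelihood fit, adjusted p under 0.05). The fits over 12 libraries had 8 residual degrees of freedom. Normalized counts are TMM counts at the mean library size. Alternatives used DESeq2 1.42.0 and limma 3.58.1, other scalings and filters, and each library left out. Scripts were tested on simulated data. The lowest chi-square per degree of freedom between libraries of a time was 3.56, so no pair was counted as 1 sample. The median biological coefficient of variation was 0.0956.

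Members and gene lists were chosen with earlier results of these data known. The genes named are the 10 highest and 3 lowest by TPM, all called at 6 h, close copies, those next to the count minimum and up to 5 per list of largest change; others were chosen after their values were seen. A result on a further gene of these lists is not reported here.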

Additional observations from a re-analysis of the deposited data

Results flagged for a closer look

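The responses of the cell lines differed by the interaction test in edgeR. At 3 h against 0 h, 51 of 71 ribosomal proteins had a higher response in PAC-2 than in EPA cells, where 11.9% of all names did. At 6 h, 7 had a lower one, a smaller share than the 28.6% of all names. Leaving out 1 library of 0, 3 or 6 h gave counts of 25 to 60 at 3 h and 3 to 14 at 6 h, with the lowest without EPA 0 h replicate 3 at 3 h and without EPA 0 h replicate 1 or 6 h replicate 3 at 6 h, and the highest at 6 h without EPA 6 h replicate 2. Libraries of 1 h were not left out. The protein with the clearest difference at 6 h was RL7L, with −0.579 (PAC-2 minus EPA, log2 scale), for which PAC-2 cells had 2950 ± 85.1 normalized counts at 6 h against 3823 ± 269 at 0 h, and EPA cells 2117 ± 24.8 at 6 h against 1884 ± 48.2 at 0 h (SD, n = 3 each). RL7L is not a usual subunit of the ribosome, and the next most negative of the 7 differences was −0.379 (RL23).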

How the results depend on the processing

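In the genome-mapped table, the count of members lower at 6 h was 11 by DESeq2, 7 with the 2 times fitted alone and 0 under the limits of the study, and ranged from 3 to 25 when 1 library was left out. Under those limits, 0 members were higher at 3 h and 0 at 6 h, and with a mean raw count of at least 500, 0 were higher at 6 h, since *rpl37* on chromosome 2 is under that minimum. Without TMM, chosen after seeing the data, the members' median at 3 h was 0.233. Leaving out 1 library, 45 to 69 members were higher at 3 h, 1 to 2 higher at 6 h and 69 to 74 differed among the times, and the medians were −0.097 to 0.060 at 1 h, 0.277 to 0.404 at 3 h and −0.190 to −0.072 at 6 h. Leaving out both 0 h replicate 3 and 1 h replicate 3, also chosen later, 69 were higher at 3 h and 4 lower at 6 h. In the assembled PAC-2 table, leaving out 1 library of 0, 3 or 6 h gave 52 to 68 proteins higher at 3 h and 1 to 9 lower at 6 h (medians 0.263 to 0.369 and −0.130 to −0.031), and in EPA cells 1 to 7 higher and 0 to 8 lower at 6 h (medians −0.045 to 0.003 at 3 h and −0.039 to 0.038 at 6 h). For the difference between lines it gave 25 to 60 proteins higher in PAC-2 at 3 h and 3 to 14 lower at 6 h (medians 0.281 to 0.401 and −0.174 to −0.058). The cause was not tested. Single members were followed under alternatives only for the largest called rises at 3 h listed above and every call at 6 h. Of 336 such values, 16 lost their call and 0 reversed their sign. The other 320 include 14 with the length trend removed from the fold change. These 14 had no test, and stayed within 0.101 of the main value on the log2 scale.

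Correlations between libraries of different times did not settle whether the replicate numbers pair the samples. Same-numbered libraries correlated at −0.239 to 0.384, others at −0.412 to 0.232, and 6 of 12 libraries correlated best with their own number. With the replicate block, 66 members were higher at 3 h and 9 lower at 6 h, and *rps12* lost its call at 3 h (adjusted p = 0.0949). In the assembled tables the block gave 69 proteins higher at 3 h in PAC-2 cells, and 55 higher and 9 lower for the difference between lines at 3 h and 6 h.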
